A study of Rattus norvegicus with 6 samples.

Results

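Cyp4a3, Acot1, Nudt7 and Idh1 are 4 genes of hepatic fatty acid handling. Rat clones listed under these names gave higher values with liver RNA of hypothyroid mice given thyroid hormone. The clones were looked for among the 6240 clones of a cDNA array, and all 4 genes named by the rule were kept. No source at hand links a clone ID to a gene. A gene was therefore given the clone whose mean T3 ratio in wild type mice lay within 0.005 of the ratio listed for that gene, and it would have been dropped if more than 1 clone lay there. The members were thus chosen by their wild type T3 values, which are given below as a description only. The values of the TRβ-/- and genotype arrays took no part in matching clones to genes. The genes themselves, however, were chosen with earlier results of these data known. By their labels, the genotype arrays also have untreated wild type mice in common with the arrays used for the matching.

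The series holds 6 two-colour arrays of liver RNA, 2 for each of 3 comparisons, and all of the mice were hypothyroid. Wild type mice killed 2 hours after T3 were compared with untreated wild type mice, TRβ-/- mice 2 hours after T3 were compared with untreated TRβ-/- mice, and untreated TRβ-/- mice were compared with untreated wild type mice. TRβ-/- mice lack thyroid hormone receptor β. The wild type mice of the T3 experiment were males of 3 months from a hybrid strain, and T3 was injected together with T4. Strain, sex and age of the TRβ-/- mice are not stated in the material used here, nor is the way in which hypothyroidism was brought about. RNA was pooled. The labels of the wild type T3 and genotype arrays give 5 mice per pool, those of the TRβ-/- T3 arrays give no number, and 1 of these does not mention a pool. The clones are of rat origin and the organism label is rat, whereas the titles and the study describe mice. Whether the 2 arrays of each comparison used the same pools could not be checked. Arrays of the same pools are technical repeats. Each SD below is therefore read only as the spread of 2 hybridisations, and not as variation between animals. In pooled whole liver, fewer cells of a type and less RNA per cell cannot be told apart. Since clones carry no gene names, neither the identity of the tissue nor the loss of the receptor could be checked from marker genes.

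Thyroid hormone acts on gene expression through nuclear receptors, and TRβ is the main form in liver. Fatty acid oxidation in the liver takes place in mitochondria, in peroxisomes and, as ω-oxidation, in the endoplasmic reticulum, and many of its genes are targets of PPARα, a nuclear receptor that is activated by fatty acids. Cyp4a3 encodes a cytochrome P450 of the 4A family, which hydroxylates the terminal carbon of fatty acids. Acot1 encodes a cytosolic acyl-CoA thioesterase, which splits acyl-CoA into free fatty acid and coenzyme A. Nudt7 encodes a peroxisomal coenzyme A diphosphatase, which degrades coenzyme A and its esters; the study lists the clone only as similar to such an enzyme. Idh1 encodes the NADP-dependent isocitrate dehydrogenase of the cytosol and peroxisomes, which supplies NADPH.

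The regions before the transcription starts of Cyp4a3, Acot1 and Nudt7 are shown because these 3 clones were the ones past the 2-fold rule in the genotype comparison described below. They are the 250 bases upstream of the start in the rat, from RefSeq and the build GRCr8. All 4 genes had an entry in the promoter table. The region of Cyp4a3 is chr5:134352237-134352486 on the minus strand, that of Acot1 is chr6:109367024-109367273 on the plus strand and that of Nudt7 is chr19:59034638-59034887 on the plus strand. Each is written 5′ to 3′, and capitals mark the nuclear receptor core motif AGGTCA, which was searched on both strands.
Cyp4a3: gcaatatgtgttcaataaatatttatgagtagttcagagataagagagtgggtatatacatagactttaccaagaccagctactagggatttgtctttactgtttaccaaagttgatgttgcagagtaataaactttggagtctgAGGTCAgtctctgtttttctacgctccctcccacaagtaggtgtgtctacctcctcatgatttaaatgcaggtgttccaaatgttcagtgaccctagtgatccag
Acot1: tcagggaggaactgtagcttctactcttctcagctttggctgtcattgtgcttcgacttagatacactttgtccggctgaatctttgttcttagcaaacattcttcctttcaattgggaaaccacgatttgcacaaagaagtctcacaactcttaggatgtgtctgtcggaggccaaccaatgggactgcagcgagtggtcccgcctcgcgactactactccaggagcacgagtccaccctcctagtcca
Nudt7: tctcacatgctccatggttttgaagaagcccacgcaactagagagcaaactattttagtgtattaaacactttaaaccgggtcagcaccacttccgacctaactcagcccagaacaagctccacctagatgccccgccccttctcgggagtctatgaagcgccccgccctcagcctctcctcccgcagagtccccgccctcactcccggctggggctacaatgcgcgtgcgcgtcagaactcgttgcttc

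Of these genes and Idh1, Cyp4a3 alone had the core motif in its window, with its first base 105 bases before the start. The core motif occurred in 14.1% of 33469 rat promoter windows of this length. Pairs of the core motif in direct repeat were sought as exact copies only. The spacing was 1 base, as bound by PPARα with its partner, or 4 bases, as bound by thyroid hormone receptors. Such pairs were in none of the 4 windows, and in 0.0508% and 0.00299% of all windows. Pairs this rare would be missing from nearly any 4 windows, so nothing is read from their absence. The window of Cyp4a2, a neighbour of Cyp4a3 from the same family, carried the core motif at the same distance. Compared position by position without alignment, 66.8% of its 250 positions were identical to those of Cyp4a3. Short gaps put alike stretches of these windows out of step, so this share understates their likeness. These are rat sequences and matches of letters, not sites shown to be bound, and the RNA on the arrays was from mice.

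How well the ratio identified a clone differed between the members. The rule takes the mean of both wild type arrays, so 3247 clones with a value on both could be matched. Among these, the window held the clones RGIAX68, RNABQ26 and RGIAM95 for Cyp4a3, Acot1 and Nudt7, and no other clone lay within 0.1 of the ratio. With clones that had a value on only 1 of these arrays counted in, a second clone lay in the window of Acot1, and the other clones within 0.1 numbered 0 for Cyp4a3, 6 for Acot1, 3 for Nudt7 and 81 for Idh1. Among clones with both values, the next to Cyp4a3 were at ratios of 7.86 below and 10.3 above. Around Acot1 they were at 4.51 and 4.94, the latter being the Nudt7 clone, and above Nudt7 the next clone was at 5.20. For Idh1 the window held the clone RNABP94, but 19 other clones lay within 0.1, and the nearest outside the window were at 1.99 and 2.01. The clone taken for Idh1 could therefore easily be that of another gene, and its values are given with this limit throughout. The gene names are those of rat clones, while the RNA was from mice. What a clone bound can be RNA of the mouse counterpart or of a close relative of the gene. Values given for Cyp4a3 are thus those of a rat clone, and not of a mouse gene shown to be Cyp4a3. Members of the Cyp4a and Acot families resemble each other, and how far these clones separate them was not tested.

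**Figure D1:**
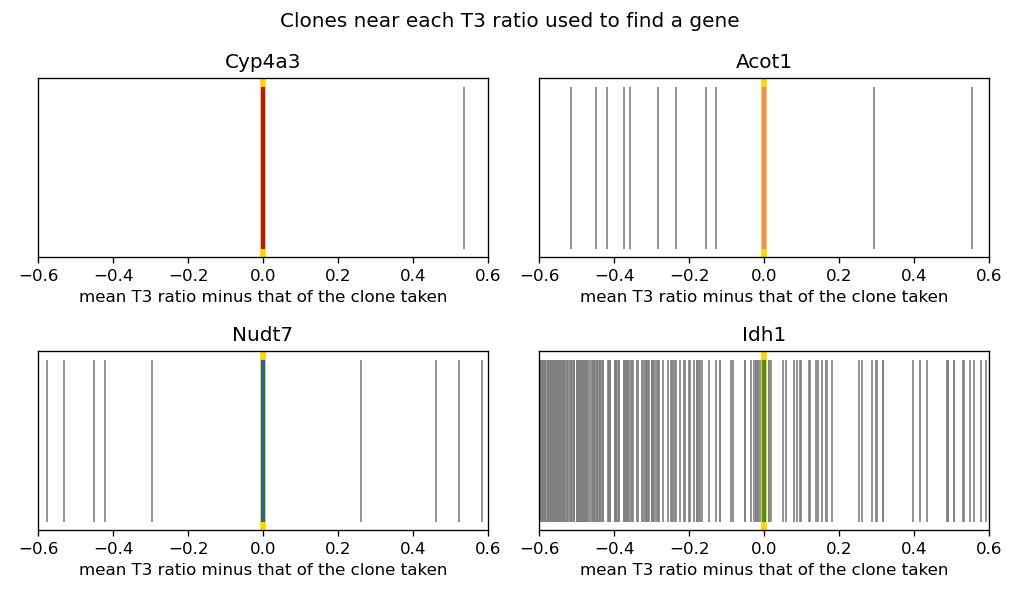
Position of clones with a value on both wild type T3 arrays around the clone taken for each gene. The x axis is the mean wild type T3 ratio of a clone minus that of the clone taken, and the y axis has no unit. Each vertical line is 1 clone, the coloured line is the clone taken and the yellow band is 0.005 to either side of it. The band has the width of the matching window, which was itself centred on the listed ratio. Among these clones, Cyp4a3, Acot1 and Nudt7 have no other within 0.1, while Idh1 has 19.

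In wild type mice the 4 clones were higher after T3, as the choice of members requires. The Cyp4a3 clone had log2 ratios of T3 over untreated of 3.22 on array 1 and 3.35 on array 2, a mean ratio of 9.77 (SD of the log2 ratios 0.09, 2 arrays). The Acot1 clone had 2.20 and 2.22, a ratio of 4.64 (SD 0.01). The Nudt7 clone had 2.17 and 2.43, a ratio of 4.94 (SD 0.18). Acot1 and Nudt7 were thus nearly level here, differing by -0.09 on the log2 scale (Acot1 minus Nudt7, SD 0.17, 2 arrays), and their values on the arrays overlapped. The Idh1 clone had 1.03 and 0.98, a ratio of 2.00 (SD 0.04), and lay on the cutoff itself. By the rule used in the study, a change of at least 2-fold on both arrays, 3 of the 4 members were higher. The study describes all of its listed genes, Idh1 among them, as repeatedly above a ratio of 2. The clone taken for Idh1 was not, with 0.98 on array 2, which is a further limit of that assignment. Over all 3247 clones with both values 80 were, or 2.46%. From this nothing is read, since the same arrays chose the members. Ranked from the highest mean, Cyp4a3 was in place 3, Nudt7 in 13, Acot1 in 14 and Idh1 in 109.

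On the TRβ-/- T3 arrays the 4 clones no longer lay on 1 side of 0. The direction of these arrays is not settled by their labels. The channel labels of the 2 arrays name opposite orders, while their values correlate at 0.703 across clones. The study reports exchanging the dyes between samples (dye swaps) in all its experiments, but does not describe TRβ-/- mice. Such a swap, with both ratios then set the same way round, would give opposite labels and a positive correlation, without fixing the direction. Values are therefore given with the deposited sign, and a sign turned on both arrays would turn all members together. As deposited, the clones of Cyp4a3, Acot1 and Idh1 had their wild type sign, and that of Nudt7 had the opposite sign. The Cyp4a3 clone had log2 ratios of 4.66 and 4.91 (mean 4.78, SD 0.18, 2 arrays), a ratio of 27.6 as deposited and 0.0363 with the sign turned. This was the largest mean in size among the 1635 clones with both values. The Acot1 clone had 4.27 on array 1, a ratio of 19.3, or 0.0519 with the sign turned. It has no value on array 2, for a reason the files do not give, so it could not be counted by the 2-fold rule.

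The Nudt7 clone lay on the opposite side of 0 from Cyp4a3 and Acot1. Its log2 ratios were -1.11 and -0.55 (mean -0.83, SD 0.40, 2 arrays), and it was past 2-fold on array 1 only. The clone taken for Idh1 had 0.71 and 0.58 (mean 0.65, SD 0.10), below 2-fold on both. Of the 3 members with both values, 1, Cyp4a3, was past the 2-fold rule, beside 4.34% of all clones for either sign. With limma, fitted over all clones of the comparison, the Benjamini-Hochberg adjusted p was 0.00549 for Cyp4a3, 0.125 for Nudt7 and 0.102 for Idh1. These p-values rest on the spread between 2 hybridisations and are not read as a test between mice.

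Differences between 2 clones on the same array do not need the direction for their size. On the wild type T3 arrays the Cyp4a3 clone exceeded the Nudt7 clone by 1.05 and 0.92 on the log2 scale (mean 0.98, SD 0.09, 2 arrays). On the TRβ-/- T3 arrays the distance between them was 5.77 and 5.46 (mean 5.62, SD 0.22). The Acot1 clone was 5.38 from Nudt7 on the 1 array with both, and 0.39 from Cyp4a3. Since the wild type ratios chose the members, the contrast of these distances between the genotypes is a description and was not tested.

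**Figure D2:**
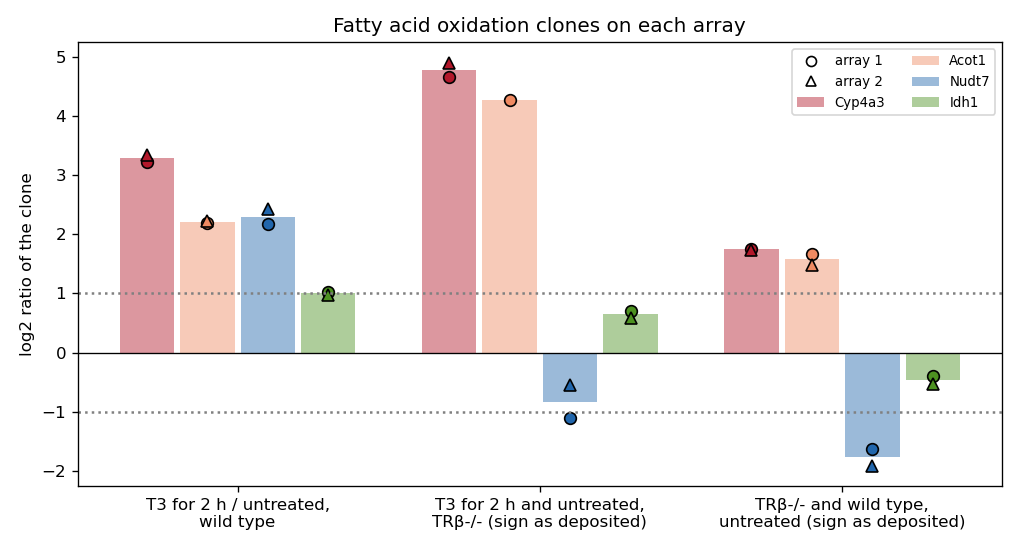
Log2 ratios of the 4 clones in each comparison. The y axis is the log2 ratio, bars are means, circles are array 1, triangles are array 2, and dotted lines mark 2-fold; the wild type T3 ratios are T3 over untreated, and the other comparisons carry the deposited sign. On the TRβ-/- T3 arrays the means of Cyp4a3 and Nudt7 stand at 4.78 and -0.83, and Acot1 at 4.27 with a value on array 1 only. Acot1 and Nudt7 were nearly level in wild type mice.

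Without T3 the genotypes differed in 3 of the 4 clones, and again not all to the same side. The direction of these ratios is not settled either, since the titles of the arrays name opposite orders and the channels name the same one. The values of these arrays correlate at only 0.358 across clones, beside 0.551 for the wild type T3 arrays. The Cyp4a3 clone had log2 ratios of 1.76 and 1.74 (mean 1.75, SD 0.01, 2 arrays), a difference of 3.37-fold between the genotypes. The Acot1 clone had 1.67 and 1.48 (1.58, SD 0.13), or 2.98-fold. Both clones lay on the same side of 0 on both arrays, and by the size of the mean, which does not depend on the direction, Cyp4a3 was in place 11 and Acot1 in place 19 of 3095 clones.

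The Nudt7 clone was different by about as much to the other side. Its log2 ratios were -1.63 and -1.92 (mean -1.77, SD 0.20, 2 arrays), a difference of 3.42-fold, and by size it was in place 10. The clone taken for Idh1 was on the side of Nudt7, with -0.39 and -0.53 (-0.46, SD 0.10). Its values do not overlap with those of Nudt7, from which it lay 1.31 away on the log2 scale (SD 0.11). In whichever direction the arrays are read, the Nudt7 clone was higher in the untreated genotype in which the Cyp4a3 and Acot1 clones were lower, with distances of 3.53 (SD 0.19) and 3.35 (SD 0.07) on the log2 scale.

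By the 2-fold rule 3 of 4 members differed between untreated genotypes, 2 with a positive and 1 with a negative sign. Over all 3095 clones the share was 0.872% for either sign. The share among clones strongly raised by T3 in wild type mice was not computed. Next to the windows of Cyp4a3, Acot1 and Nudt7, RNABS36 (-1.54 and -1.91), RNABP75 (1.76 and 2.02) and RNABI57 (-1.37 and -1.30) also passed. RGIAJ01 (0.06 and 0.28) did not. The count is therefore not read as particular to the members. Limma, fitted over all clones of the comparison, gave adjusted p-values of 0.0203 for Cyp4a3, 0.0256 for Acot1, 0.0234 for Nudt7 and 0.378 for Idh1, with the same limit to the spread between hybridisations. The median mean log2 ratio of all clones was -0.01. The genotype arrays and each pair of T3 arrays have untreated mice of a genotype in common by their labels, so the comparisons are not independent, and the values of a clone in them are set side by side without a test of their relation. The count of members and their p-values between genotypes may therefore not be free of the choice of members.

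**Figure D3:**
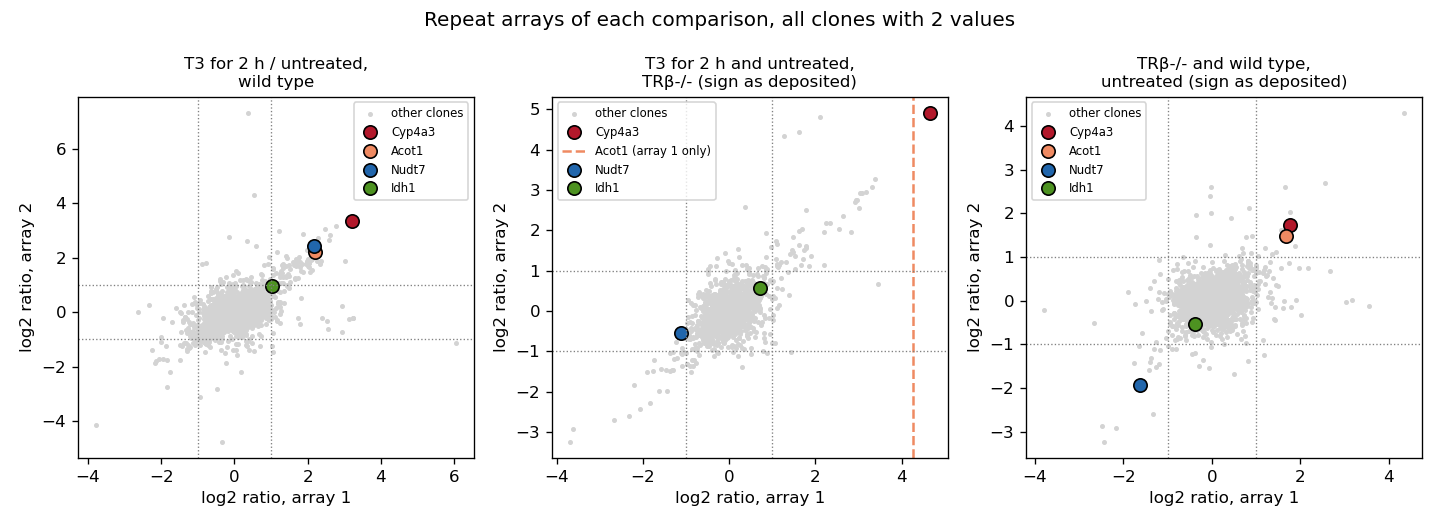
Array 1 against array 2 for each comparison. The x and y axes are log2 ratios, grey points are all clones with a value on both arrays, coloured points are the 4 members, the dashed line marks Acot1 where it has a value on array 1 only, and dotted lines mark 2-fold. Cyp4a3 is the outermost clone of the TRβ-/- T3 comparison at 4.66 and 4.91, and in the genotype comparison Cyp4a3 and Acot1 lie at the upper right and Nudt7 at the lower left.

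Of the other genes of fatty acid oxidation and activation in the study's list of T3-induced genes, 5 were looked for in the same way: Decr2, Aldh3a2, Crat, Acsl5 and Ech1. A single clone lay in the window for 3 of them, each with other clones within 0.1 of the ratio: 11 for Decr2, 11 for Aldh3a2 and 22 for Ech1. These assignments are therefore uncertain, like that of Idh1. For Crat, the carnitine acetyltransferase, and for Acsl5, an acyl-CoA synthetase that activates long-chain fatty acids, 2 clones each met the ratio and no value is given.

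For Ech1, a dienoyl-CoA isomerase of the oxidation of unsaturated fatty acids, the clone had log2 ratios of 1.12 and 0.95 in wild type mice (mean 1.04, SD 0.12, 2 arrays). On the TRβ-/- T3 arrays it had 1.77 and 1.56 (1.67, SD 0.15), the same sign as Cyp4a3 and past the 2-fold rule. Between untreated genotypes it had 0.18 and 0.47 (0.32, SD 0.21). The order of its values was thus that of Cyp4a3, at smaller size.

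For Aldh3a2, a dehydrogenase of fatty aldehydes, the clone had 1.07 and 1.64 in wild type mice (mean 1.35, SD 0.40), and 0.97 and 1.59 on the TRβ-/- T3 arrays (1.28, SD 0.44). Between untreated genotypes its values lay on both sides of 0, at 0.25 and -0.42 (-0.08, SD 0.47). For Decr2, a peroxisomal dienoyl-CoA reductase, it had 1.41 and 1.31 in wild type mice (1.36, SD 0.07), no value on the TRβ-/- T3 arrays and 0.18 on 1 genotype array. Of these clones 2 passed the 2-fold rule in wild type mice, Decr2 and Aldh3a2. The Ech1 clone did not, with 0.95 on array 2, although the study describes its listed genes as repeatedly above a ratio of 2. Of the 2 with both values in TRβ-/- mice Ech1 passed, and of the 2 with both values between genotypes none did, at the shares over all clones given above.

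**Figure D4:**
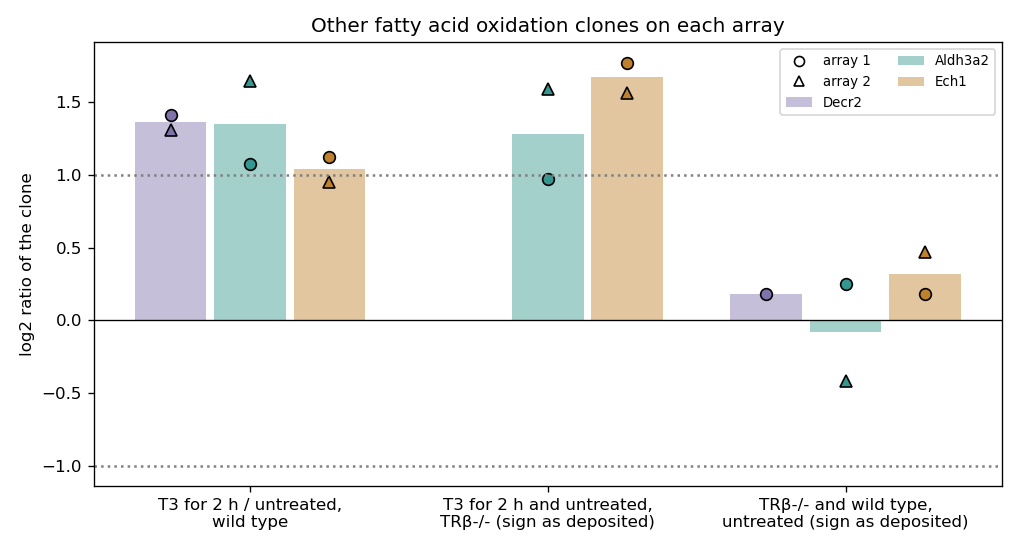
Log2 ratios of the clones taken for Decr2, Aldh3a2 and Ech1. The y axis is the log2 ratio, bars are means, circles are array 1, triangles are array 2, dotted lines mark 2-fold, and all but the wild type T3 ratios carry the deposited sign. Ech1 is at 1.67 on the TRβ-/- T3 arrays and 1.04 in wild type mice, and Decr2 has no value on the TRβ-/- T3 arrays.

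The clones most like each member were sought by the Euclidean distance of the log2 ratios, which includes the wild type values that chose the members. Of the 2175 other clones with values on the same 5 arrays as Acot1, the nearest to it was the Cyp4a3 clone, at a distance of 1.59 beside a median of 5.76 over all of them. The next were RGIAX56 at 1.77 and RGIAI73 at 1.96.

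Over all 6 arrays and 1618 other clones, Nudt7 was nearest to RNAC07, at 1.05 beside a median of 4.36. That clone had 2.28 and 2.73 in wild type mice, -1.32 and -1.45 on the TRβ-/- T3 arrays, and -1.42 and -1.59 between genotypes. It was thus a clone with the signs of Nudt7 on every array. RGIAE69 at 1.32 and RGIAX93 at 1.68 followed.

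On all 6 arrays, the clones nearest to Cyp4a3 were RGIAI73 at 3.48, RGIAJ05 at 3.55 and RGIBB41 at 3.62, with a median of 8.57. The Acot1 clone, at 1.59 from Cyp4a3 on 5 arrays, has no value on TRβ-/- T3 array 2 and could not be among them. Distances over 5 and over 6 arrays are not directly comparable. RNABP75, the clone next above the Cyp4a3 window, has no value on TRβ-/- T3 array 2 and was not compared in this way. It was looked at after its values were seen. It had 3.29 and 3.44 in wild type mice, 5.72 on TRβ-/- T3 array 1, and 1.76 and 2.02 between genotypes, close to Cyp4a3 in wild type mice and between genotypes and above it on the TRβ-/- T3 array. The clone taken for Idh1 had RGIAG35 at 0.366, RGIAC24 at 0.466 and RGIAE91 at 0.494, with a median of 1.93.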

How the data were processed

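Liver RNA was hybridised to cDNA arrays, 2 for each of 3 comparisons. Spots were quantified by the authors with GenePix Pro, weak spots (under 2 times the background) were removed, local background was subtracted and each array was normalized with the Lowess method of SMA; no versions are stated. What was deposited is a log2 ratio for each clone on each array. Intensities were not used here, so signal over background is unknown, and precision is limited by the number of arrays. Values were present for 3251 and 5686 clones on the wild type T3 arrays, 2270 and 1690 on the TRβ-/- T3 arrays and 3222 and 3622 on the genotype arrays.

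The direction and scale of the wild type T3 arrays come from the ratios the study lists for T3 over untreated, through which the members were found. Members and gene lists were chosen with earlier results of these data known. A change was counted when both arrays had a log2 ratio of 1 or more, or both of -1 or less. Named are the members, the listed oxidation genes with a single clone in the window, and the 3 clones nearest to each member over all 6 arrays. For Acot1 5 arrays were used, chosen after seeing the data. Crat and Acsl5 are named without values, and Cyp4a2 for its promoter only. Clones next to the window of a member are named too, and their values on the other arrays were picked for the text after being seen. Limma 3.58.1 in R 4.3.3, with Benjamini-Hochberg adjustment over all clones of a comparison, was an alternative and was tested on simulated data. Other fold cutoffs, the mean of the arrays, centring, scaling, single arrays and other matching windows were also tried. Python 3.11.15, numpy 2.4.6, pandas 2.3.3 and matplotlib 3.10.9 were used.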

Additional observations from a re-analysis of the deposited data

Results flagged for a closer look

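Nudt7 was higher on both wild type T3 arrays and below 0 on both TRβ-/- T3 arrays as deposited, with a mean log2 ratio of -0.83 (SD 0.40, 2 arrays). The difference between the genotypes was not tested. If these arrays are read with the opposite sign, Nudt7 is at 0.83, the side of wild type mice, and Cyp4a3, Acot1 and Idh1 are then at -4.78, -4.27 and -0.65, opposite to wild type mice.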

How the results depend on the processing

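The members past the 2-fold rule numbered 3 in wild type mice, 1 in TRβ-/- mice and 3 between genotypes. Single arrays gave 3 to 4, 1 to 3 and 3; the value of 3 in TRβ-/- mice came from array 1, where Acot1 has its only value and Nudt7 passed. Under the other alternatives the counts ran from 3 to 4, stayed at 1, and ran from 2 to 3, with Acot1 below a 3-fold rule between genotypes; leaving out the Idh1 clone, an alternative added after seeing the data, gave 3, 1 and 3. Of 24 values of the members' means with centred or scaled arrays, 22 moved by no more than the SD of the arrays and 0 changed sign; the other 2 are those of Acot1 in TRβ-/- mice, which has no SD, at 4.25 centred and 4.05 scaled. Turning the sign of an unsettled comparison turns all its means by construction.

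With a window of 0.0025 Nudt7 had 0 clones, and with 0.01 Idh1 had 2. With linear ratios averaged, Cyp4a3 and Nudt7 had 0 and Idh1 had 2. With clones on either wild type array, Acot1 had 2. Over all clones, in the order wild type higher, TRβ-/- and genotype of either sign, the 2-fold rule gave 80, 71 and 27, a 1.5-fold rule 146, 138 and 86, a 3-fold rule 40, 31 and 9, and single arrays 131 to 434, 122 to 151 and 81 to 104. The mean of the arrays moved the genotype count to 48. No paired analysis was possible because no result tests 1 comparison against another: the fold rule is no test, and limma was fitted within each comparison, where an array number occurs once.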
